A study of Homo sapiens with 6 samples.

Results

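The 8q24 segment described here spans chr8:128000001-130000000 (hg19) on the long arm of chromosome 8, and its members are all called peaks that overlap it. Of 29879 ATAC-seq peaks in 6 libraries, 206 did so. The segment was selected on measured values of these lists, many peaks and a raised local background in HET-1A library 2, so peak numbers, fold enrichment and local background are given as descriptions and were not tested. It holds MYC (ENSG00000136997, 128747680 to 128755197, plus strand) and PVT1 (ENSG00000249859, 128806772 to 129199347, plus strand), as the label of the segment says.

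MYC encodes a transcription factor that drives cell growth and division, and extra copies of its locus are frequent in squamous and other carcinomas. PVT1, its downstream neighbour, is a long non-coding RNA gene whose introns carry enhancers, and its promoter can compete with that of MYC for them. The sequence on either side is poor in protein-coding genes and is known for long non-coding RNA genes and for distant enhancers of MYC that are used in different tissues.

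ATAC-seq uses the Tn5 transposase to cut and tag accessible DNA, so that open sites collect more fragments than their surroundings. Libraries 1 and 2 came from HET-1A, a non-cancerous esophageal epithelial line immortalised with SV40 T antigen and grown in BEBM with its additives. Libraries 4 and 6 came from KYSE-30 and libraries 7 and 8 from KYSE-150, both esophageal squamous cell carcinoma lines grown in RPMI/F12 with serum, and no group received a drug or a genetic change. Each line stands for 1 source of cells, and medium and line cannot be told apart between HET-1A and the carcinoma lines.

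The lists were of very unequal length, with 168 and 15979 peaks for HET-1A, 1255 and 11671 for KYSE-30, and 547 and 259 for KYSE-150. The genome background, the smallest local background in a list, lay between 1.49 and 3.34 tags per 200 bp. It stands in for depth, as the lists carry no read totals. Of 7 epithelial genes examined after the lists had been seen (KRT5, KRT14, TP63, CDH1, KRT8, KRT18 and DSP), 3 had a peak within 3 kb of their start in HET-1A library 2 (KRT8, KRT18 and DSP), and 0 had one in each of the other libraries. Of 4 mesenchymal genes (VIM, COL1A1, COL1A2 and PDGFRB), VIM had such a peak in KYSE-30 library 6, and the other libraries had 0. KRT5, KRT14, TP63 and CDH1 were thus without a peak in every list, also in the longest, and the labelled cell type could not be settled on these genes in any library. With 2 libraries against 2, an exact two-sided permutation test cannot give a p-value under 0.33, and no test between lines was run.

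Nearly all of the 8q24 peaks came from 1 library. HET-1A library 2 gave 183 of the 206, or 88.8%, and these covered 74.8 kb or 3.74% of the segment. KYSE-30 library 6 gave 13 peaks, KYSE-30 library 4 gave 6, HET-1A library 1 gave 3, KYSE-150 library 7 gave 1 and KYSE-150 library 8 gave 0. As a share of each list, the segment took 1.79% of the peaks in HET-1A library 1 (Wilson 95% interval 0.609 to 5.12%) and 1.15% in HET-1A library 2 (0.992 to 1.32%). For KYSE-30 the shares were 0.478% (0.219 to 1.04%) in library 4 and 0.111% (0.0651 to 0.190%) in library 6. KYSE-150 library 7 had 0.183% (0.0323 to 1.03%) of its peaks there, and library 8, with 0 of 259 peaks, had 0% (0 to 1.46%). Intervals cover counting error only. The segment makes up 0.0646% of the genome length, and since it was selected on these numbers they were not tested against it.

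The local background is what MACS2 sets against the tags at a peak summit, and was recovered from the fold enrichment and p-value of each peak. It is the mean over 10 kb around the summit, or the genome background where that is higher. The relative background given below is the local background divided by the genome background of the same library. DNA copies per cell and accessibility spread over 10 kb both enter it and cannot be told apart in peak lists.

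In HET-1A the peaks of the segment sat on a high local background, and in KYSE-30 and KYSE-150 they did not. The median relative background was 8.15 (range 4.65 to 19.0) over the 3 peaks of HET-1A library 1 and 13.4 (1.00 to 22.5) over the 183 peaks of library 2, where the medians over all peaks of these lists were 1.28 and 1.45. For KYSE-30 library 4 it was 1.60 (1.00 to 1.996), beside 1.42 over the whole list, and for library 6 it was 1.65 (1.08 to 2.61), beside 1.44. The single peak of KYSE-150 library 7 stood at 1.00. A relative background of at least 4 was found for 3 of 3 peaks in HET-1A library 1 and 169 of 183 in library 2, where 11.9% and 6.31% of all peaks reached it. It was found for 0 of 6 and 0 of 13 peaks in KYSE-30 libraries 4 and 6 (6.69% and 1.34% of all peaks) and for 0 of 1 in KYSE-150 library 7 (4.94%). Since background chose the segment, nothing further is read from these counts.

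**Figure D1:**
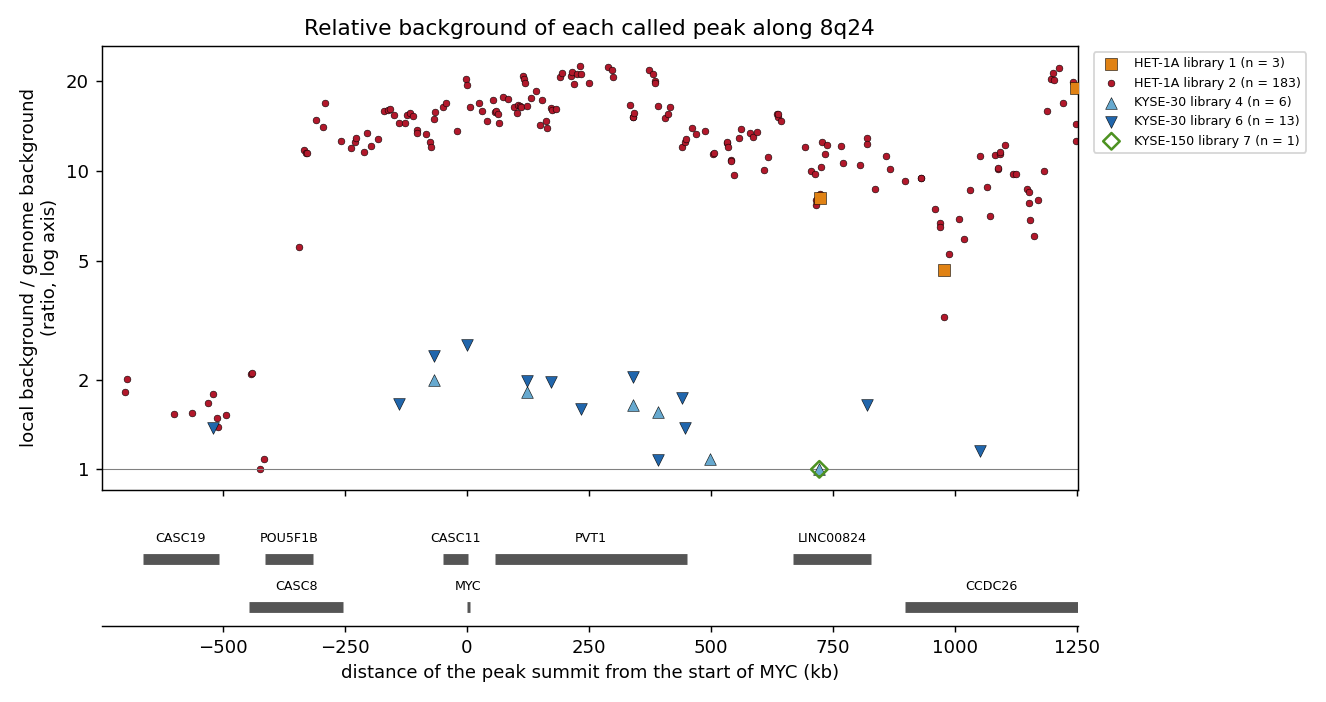
Relative background (local background divided by genome background, log axis) of each of the 206 peaks against the distance of its summit from the start of MYC in kb, with gene bodies drawn below. HET-1A library 2 climbs from between 1.00 and 2.10 to above 10 left of MYC and peaks at 22.5 within PVT1, the 3 peaks of HET-1A library 1 lie near it, and all KYSE-30 peaks stay at or below 2.61; the open diamond of KYSE-150 library 7 lies around a KYSE-30 library 4 triangle at 1.00.

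Fold enrichment ran the other way in HET-1A. Its median in the segment was 2.57 (2.18 to 3.07) in library 1 and 2.11 (1.54 to 7.55) in library 2, against 4.66 and 4.22 over all peaks. In KYSE-30 the medians were 4.62 (3.40 to 6.54) and 4.93 (3.48 to 7.80) for libraries 4 and 6, against 4.29 and 5.47. The HET-1A library 2 peaks were low in fold but not in tags. Their summits held a median of 97 tags (14 to 313), against 25 over all peaks of the list, and a median of 47.3 tags above the local background, against 19.9. On a higher local background a peak needs more tags to be called, and a lower fold enrichment is enough. Both values thus go with the background that chose the segment, and nothing further is read from them. Among peaks of that library with a relative background under 2 the lowest fold enrichment was 2.57, and 127 of its 183 peaks in the segment lay below this value, as did 813 peaks (5.09%) of the whole list. A peak adds its own tags to the 10-kb mean, and in HET-1A library 2 that addition was at most 7.43% of the local background at the median peak. The limit was higher at single peaks, up to 69.3% at 128680311 to 128681660. It leaves out the tags of neighbouring peaks in the same 10 kb. Peak starts of that library in the segment were a median of 7.36 kb apart, so all called peaks together can add more.

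**Figure D2:**
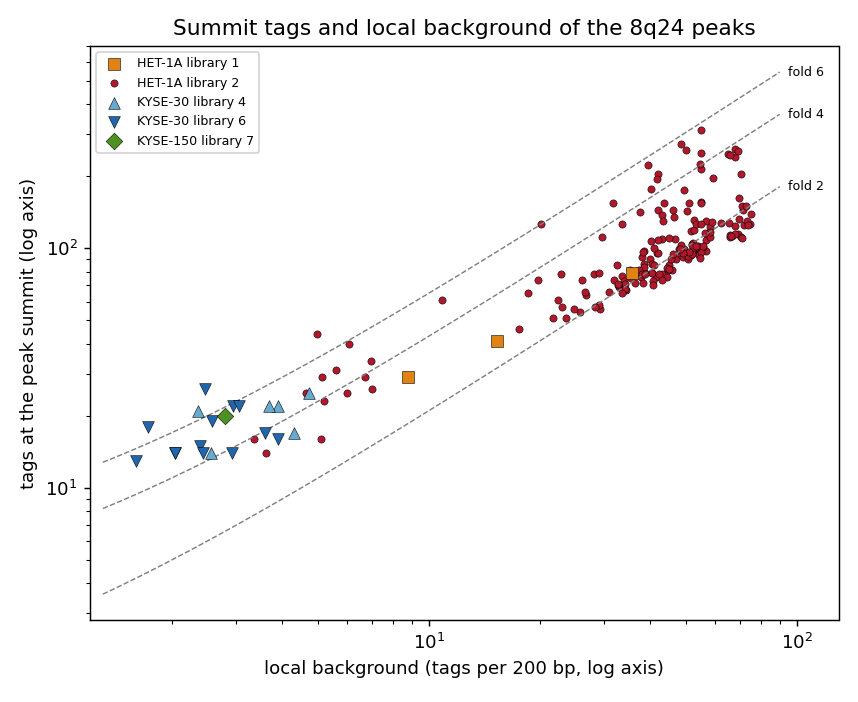
Tags at the summit against local background in tags per 200 bp for the 206 peaks, both on log axes, with dashed lines of equal fold enrichment at 2, 4 and 6. Most HET-1A library 2 peaks form a band along the line of fold 2 at backgrounds near their median of 44.7, and the KYSE-30 peaks lie at backgrounds under 5 along the lines of fold 4 and 6.

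Dividing both summit tags and local background by the relative background brings each peak to the genome background of its library, and a peak was counted as passing if its Poisson p-value stayed under the largest in the deposited list. This measure was added after the data were seen. In HET-1A library 2, 33 of 183 peaks (18.0%) passed, against 84.0% of the whole list. In HET-1A library 1, 0 of 3 passed (76.8% of the list). In KYSE-30, 5 of 6 peaks of library 4 passed (73.8%) and 10 of 13 of library 6 did (90.8%), and the 1 peak of KYSE-150 library 7 passed (59.0%). Whether a peak passes follows from its fold enrichment and local background. Local background chose the segment, so nothing further is read from these shares.

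Within the segment the background of HET-1A library 2 rose in a step. The first 13 peaks, from 128047842 to 128333734, had a relative background of 1.00 to 2.10, a median fold enrichment of 3.91 and 14 to 44 tags. After a gap of 69.8 kb without a peak came a peak at 128403542 to 128404083 with a relative background of 5.57, and the next, at 128412994 to 128413885, stood at 11.8. From the first of these to the last peak at 129997314, over 1.59 Mb, the library had 170 peaks, with a relative background of 3.25 to 22.5 (median 13.8), a median fold enrichment of 2.08 and 46 to 313 tags. Peaks were 3.22 per 100 kb before the step and 10.7 per 100 kb after it, and 12 of 13 and 21 of 170 passed after division by the relative background. The step was itself placed by relative background, which also decides in part which peaks pass. The last peak before the segment, at 127998136 to 127998399, had a relative background of 1.06. Over the 2 Mb before the segment, the 59 peaks of the library ranged from 1.02 to 4.52, with a median of 2.34. The first peak beyond the segment lay 955 kb past the last peak inside it, at 130952000 to 130952308 in CYRIB, with a relative background of 1.00 and a fold enrichment of 4.83.

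Upstream of MYC, over 748 kb, HET-1A library 2 had 48 peaks, a median fold enrichment of 2.80 and relative backgrounds from 1.00 to 20.3. This stretch holds the cancer susceptibility and prostate and colon cancer associated long non-coding RNA genes, and the step falls inside it. CASC19 (128084939 to 128239786, minus strand) lay before the step and carried 6 peaks with a median fold enrichment of 4.74, among them the peak of highest fold enrichment in the library's part of the segment, 7.55 at 128234956 to 128235542, with 44 tags on a relative background of 1.48. CASC8 (128302053 to 128494384, minus strand) lay across the step, with 12 peaks on relative backgrounds from 1.00 to 17.0. POU5F1B, a retrogene copy of the pluripotency factor gene POU5F1, is annotated from 128334428 to 128432311 and had 4 peaks. CCAT2, a long non-coding RNA gene at a distant MYC enhancer, held 1 peak, at 128412994, with 222 tags and a fold enrichment of 5.51. PCAT1 had 17 peaks with a median relative background of 1.79, and PRNCR1 had 0. Of these genes, KYSE-30 had a peak only in CASC19, which PCAT1 overlaps, in library 6.

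Nearer to MYC, the peak at 128608271 to 128608927 in an intron of ENSG00000286266 had a fold enrichment of 5.53 and 273 tags in HET-1A library 2, and at 7.80 with 26 tags it had the highest fold enrichment of the 13 segment peaks of KYSE-30 library 6. A peak at 128680311 to 128681660 lay 1575 bp from the start of ENSG00000286010, another unnamed gene. It had a fold enrichment of 5.05 in HET-1A library 2, and in KYSE-30 it had 4.55 (library 4) and 3.93 (library 6). The peak over that start, at 128683130 to 128683352, was found in HET-1A library 2 only, with a fold enrichment of 2.23. CASC11, whose body overlaps the start of MYC on the minus strand, carried 5 HET-1A library 2 peaks with a median fold enrichment of 2.81.

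A called peak lay at the 5′ end of MYC in 2 of the 6 libraries. In HET-1A library 2 the peak covered the annotated start and ran from 128747411 to 128748652, with 248 tags, a relative background of 19.5, a fold enrichment of 3.76 and a q-value of 3.47e-62. In KYSE-30 library 6 the peak began past the annotated start, inside MYC, and ran from 128748408 to 128748614. The summit of the wider HET-1A library 2 peak, at 128748465, lay within these bounds. The KYSE-30 library 6 peak had 16 tags, a relative background of 2.61, a fold enrichment of 3.48 and a q-value of 0.000962. The fold enrichments were thus close while summit tags and background were not, and each of these q-values is relative to the peak's own library. The relative background of 2.61 was the highest of the 13 peaks of KYSE-30 library 6. In HET-1A library 2 the peak's own tags could make up as much as 47.2% of its local background. HET-1A library 1, KYSE-30 library 4 and both KYSE-150 libraries had no called peak at MYC, which in lists of this length does not show that the promoter was closed.

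HET-1A library 2 had a pair of further peaks beside MYC. That at 128746250 to 128746589, with its summit 1.29 kb before the start, had a fold enrichment of 3.50 and 240 tags, and its 200 bp around the summit matched the core motif of CTCF, the insulator and loop anchor protein. That at 128755274 to 128755662, just past the end of MYC, had a fold enrichment of 3.85 and 215 tags and held an AP-1 core. Between MYC and PVT1, over 51.6 kb, the library had 6 peaks on relative backgrounds from 14.7 to 17.4, and KYSE-30 had 0.

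PVT1 was the densest of these stretches in HET-1A library 2, setting aside the 7.52 kb of MYC with its single peak. The short stretch between MYC and PVT1 was close, at 11.6 per 100 kb on 6 peaks. The stretch upstream of MYC, at 6.42 per 100 kb, includes the part before the step. PVT1 held 50 peak summits, or 12.7 per 100 kb, with a median fold enrichment of 2.01 and relative backgrounds from 12.0 to 22.5 (median 16.7). KYSE-30 library 6 had 7 of its 13 peaks there and library 4 had 3 of its 6, while HET-1A library 1 and KYSE-150 had 0. At the annotated start of PVT1 HET-1A library 2 had low peaks, at 128806615 to 128806881 with a fold enrichment of 2.46 and at 128807883 to 128808141 with 2.34. The peak with the smallest p-value in the segment lay inside the gene, at 128871779 to 128872615, about 125 kb from the start of MYC and over the start of an annotated PVT1 transcript. It had a fold enrichment of 5.60 with 313 tags in HET-1A library 2 (q-value 6.82e-122), and in KYSE-30 it had 3.40 with 17 tags (library 4) and 5.84 with 22 tags (library 6). It held an AP-1 core. The microRNA genes MIR1205, MIR1207 and MIR1208, which lie within or near PVT1, had no peak over them in any of the 6 libraries.

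Downstream of PVT1, over 801 kb, HET-1A library 2 had 78 peaks, or 9.74 per 100 kb, with a median fold enrichment of 2.10 and a median relative background of 11.2 (3.25 to 22.1). The background sank to 3.25 at 129726441 to 129727215 and stood high again close to the end of the segment. LINC00824 (129417515 to 129576925, minus strand), a long non-coding RNA gene, held 15 of these peaks with a median fold enrichment of 2.26. CCDC26 (129646445 to 130696016), another long non-coding RNA gene that was named after its values were seen, held 37, among them the second highest fold enrichment of the library in the segment, 6.03 with 127 tags at 129909207 to 129909779.

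The 3 peaks of HET-1A library 1 all lay in this downstream stretch. At 129472452 to 129472696 in LINC00824 it had 41 tags, a fold enrichment of 2.57 and a relative background of 8.15, and the nearest peak of library 2, 367 bp away, stood at 8.41. At 129725387 to 129725586 it had 29 tags, a fold enrichment of 3.07 and a relative background of 4.65, and library 2 stood at 3.25 at a distance of 854 bp. At 129995723 to 129995935 it had 79 tags, a fold enrichment of 2.18 and a relative background of 19.0, and library 2 stood at 14.4 at a distance of 139 bp. Both HET-1A libraries thus had their lowest and highest value of these 3 places at the same place. However, 0 of the 3 peaks overlapped a peak of library 2. With only 3 places, and a relative background that chose the segment, nothing further is read from this order.

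**Figure D3:**
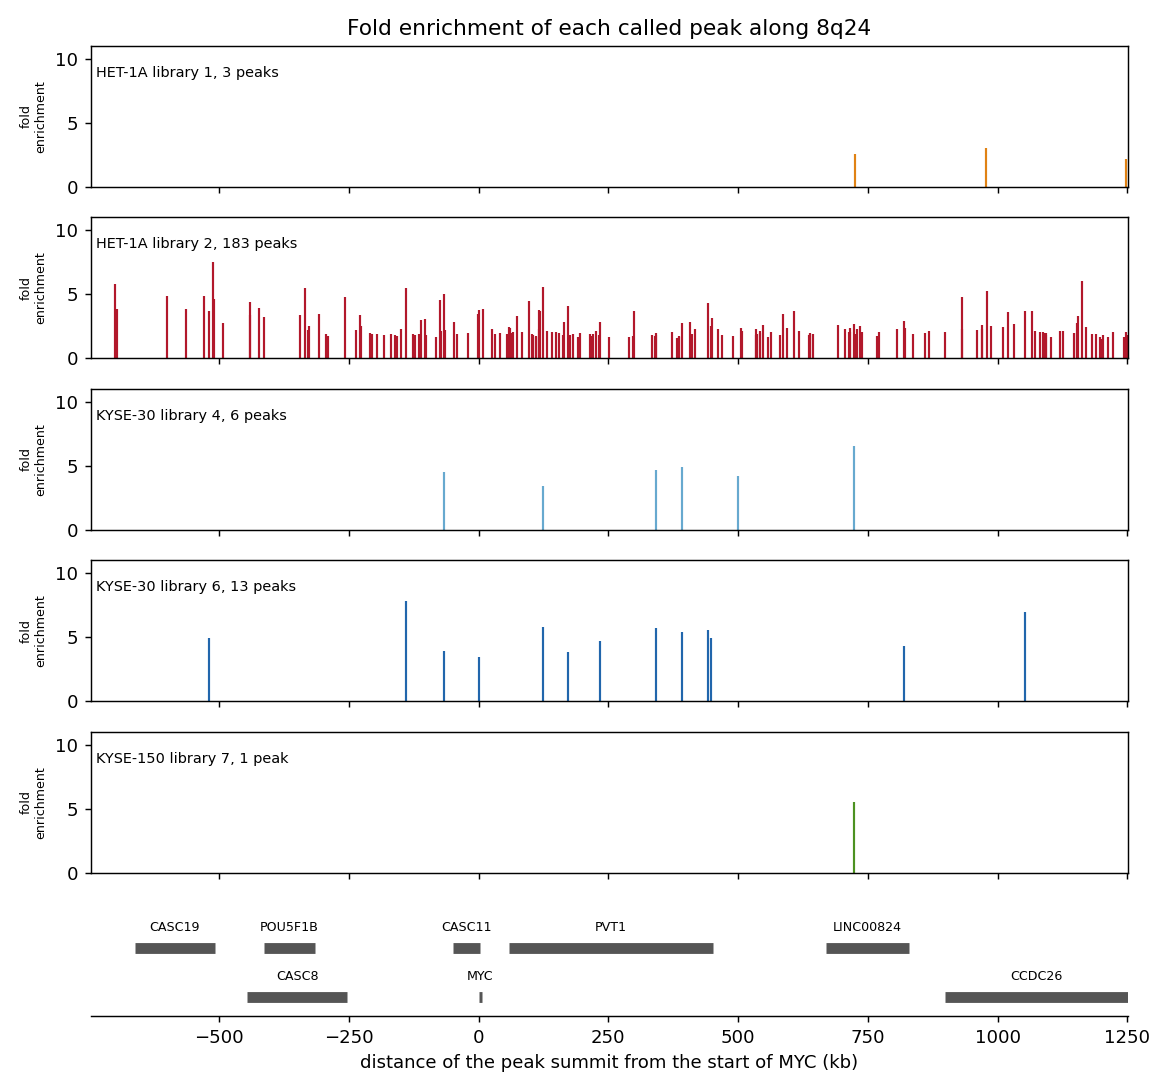
Fold enrichment (ratio) of each peak against the distance of its summit from the start of MYC in kb, with 1 panel for each of the 5 libraries that have peaks in the segment and gene bodies at the bottom. HET-1A library 2 shows a dense row of peaks near 2 with single peaks up to 7.55, and the KYSE-30 peaks reach 3.40 to 7.80 and are most frequent between MYC and the end of PVT1.

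After merging peaks that overlapped by at least 1 bp, the segment held 188 regions of 23972 in all. HET-1A library 2 alone had a peak in 170 of the 188, where 46.6% of all regions were of this kind. A peak in at least 2 libraries was found in 14 (20.9% of all regions), of which 10 had 2 libraries and 4 had 3. Both KYSE-30 libraries shared 4 (2.91%), both HET-1A libraries shared 0 (0.192%) and both KYSE-150 libraries shared 0 (0.259%). All 13 peaks of KYSE-30 library 6 overlapped a peak of HET-1A library 2, where 39.2% of its whole list did. For KYSE-30 library 4 the overlap was 4 of 6 (50.4% of its list). The segment was selected for the peak density of HET-1A library 2, so nothing further is read from these overlaps.

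Of the 14 shared regions, 7 lay in PVT1. At the 13 regions of HET-1A library 2 and KYSE-30 library 6, fold enrichment was higher in KYSE-30 library 6 at 10 and in HET-1A library 2 at 3. KYSE-30 library 6 was the higher at 73.2% of the 4543 such regions in all, so this count was close to that of the lists as a whole. The 3 regions were the MYC promoter, the region at 128680311 to 128681660 near the start of ENSG00000286010, and a PVT1 intron at 128920104 to 128920504 (4.08 against 3.83). The widest gap was in a PVT1 intron at 129089049 to 129089533, where HET-1A library 2 had 1.82 while KYSE-30 had 4.69 (library 4) and 5.69 (library 6). Further along PVT1, at 129139867 to 129140373, they were 2.78, 4.91 and 5.38. Such differences in fold enrichment go with the unequal local background, which was 15.2 times the genome background at the first of these in HET-1A library 2 and 1.65 and 2.04 times in KYSE-30, and its part in them was not tested.

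The other shared regions of PVT1 were found in HET-1A library 2 and KYSE-30 library 6 only, with fold enrichments of 2.87 and 4.73 at 128981679, 4.31 and 5.59 at 129188799, and 2.54 and 4.93 at 129195449. Outside PVT1 the same libraries shared the CASC19 region at 128227335 (3.71 and 4.93), a LINC00824 region at 129567026 (2.96 and 4.36) and a CCDC26 region at 129799842 (3.70 and 6.99). The 13 shared peaks of HET-1A library 2 had a median fold enrichment of 3.71. Of these, 8 passed after division by the relative background, where 84.0% of the whole list did. Its peaks in regions of its own had a median fold enrichment of 2.09. The same medians for shared and own peaks of the whole list are not given here. Fold enrichment and passing go with the background that chose the segment, so nothing further is read from these values.

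The 14th region had no peak in HET-1A. It lay in the first intron of LINC00824 at 129470508 to 129470736, with a fold enrichment of 6.54 and 21 tags in KYSE-30 library 4 and of 5.53 and 20 tags in KYSE-150 library 7, both on a relative background of 1.00. KYSE-30 library 6, with the longer list of that line, had no peak there. The remaining peak of KYSE-30 library 4, at 129246705 to 129246954, was found in no other library and had a fold enrichment of 4.21.

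**Figure D4:**
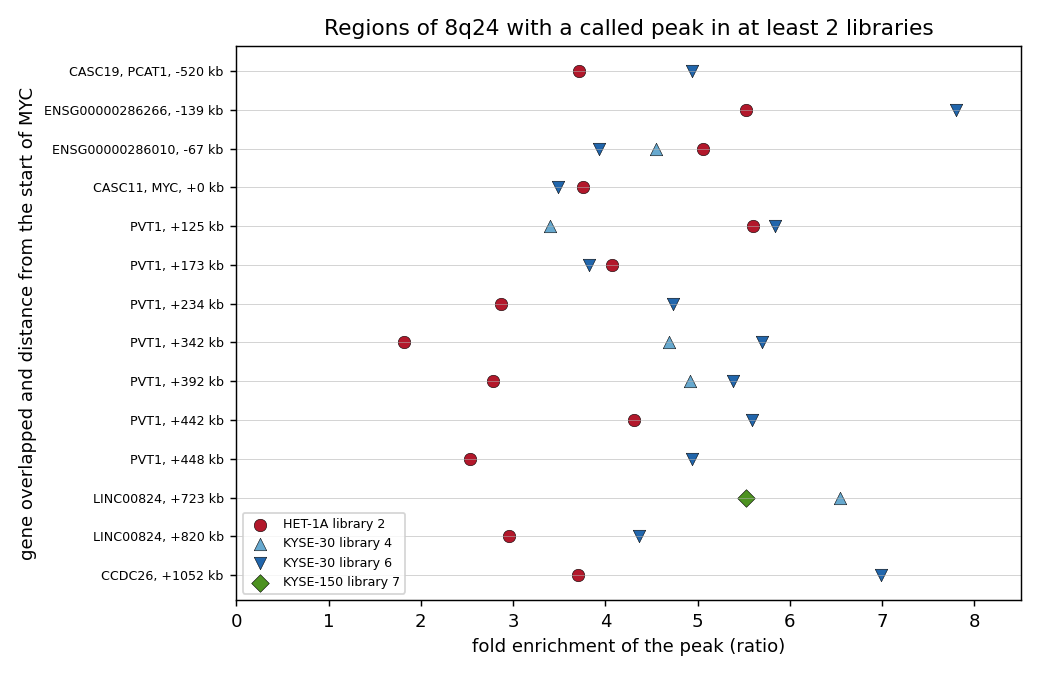
Fold enrichment (ratio) in each library at the 14 regions of the segment with a peak in at least 2 libraries, in order along the chromosome and labelled by the gene overlapped and the distance from the start of MYC. KYSE-30 library 6 lies to the right of HET-1A library 2 at 10 of the 13 regions that they share, and HET-1A library 2 is lowest at 1.82 in PVT1.

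The HET-1A library 2 peaks of the segment were mostly intronic. Of the 183, 102 lay in introns (55.7%, Wilson 95% interval 48.5 to 62.7%), where 24.6% of the whole list did, and 41 lay within 3 kb of a transcription start (22.4%, 17.0 to 29.0%), where 53.1% did. With start sites of protein-coding genes alone the shares were 2.73% in the segment and 43.2% in the list. Of these 41, PVT1, with its many annotated transcripts, held 19, the stretch upstream of MYC held 17 and that downstream of PVT1 held 3. Distal intergenic sequence held 31, or 16.9%, against 18.1%. In KYSE-30 library 6, 3 of 13 peaks were at promoters (23.1%), against 55.1% of its list, and in library 4, 2 of 6 were (33.3%), against 63.7%.

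Short motifs were counted in the 200 bp around each summit on both strands, and a match is a description of the letters there, not a bound site. The AP-1 core, TGACTCA or TGAGTCA, was in 36 of the 183 HET-1A library 2 peaks (19.7%, 14.6 to 26.0%), against 21.7% of all its peaks. Since AP-1 cores are commoner away from promoters, the 142 peaks of the segment outside promoters were set beside the others of that kind. They held an AP-1 core in 17.6% (12.2 to 24.7%), against 32.2% (31.1 to 33.2%) of all non-promoter peaks of the library. Of all 183 peaks, the TEAD letters GGAATG were in 29 (15.8%, against 12.8% of the list) and the CTCF core in 3 (1.64%, against 4.06%). The E-box CACGTG, to which MYC itself binds, was in 1 (0.546%, against 5.54%). The TEAD, CTCF and E-box shares are set beside the whole list only, in which promoters are commoner than in the segment. The part of this in the differences was not tested. When whole peaks were searched, the TEAD letters were in 27.3% of the segment's peaks and 17.7% of the list, with median peak widths of 330 and 271 bp.

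From the step on, AP-1 cores were counted separately in peaks that did and did not pass after division by the relative background. Of the 21 that passed, 8 held an AP-1 core (38.1%, 20.8 to 59.1%), and of the 149 that did not pass, 22 did (14.8%, 9.96 to 21.3%), so the intervals overlapped slightly, and the difference was not tested. The split rests on fold enrichment and local background, and the same split of the whole list is not given here. The shares therefore cannot be called particular to the segment. Promoters made up 7 of the 21 (33.3%) and 26 of the 149 (17.4%), and all 31 distal intergenic peaks of the segment were among the 149. In KYSE-30 library 6, 5 of 13 peaks held an AP-1 core (38.5%), against 26.2% of its list, and in library 4, 0 of 6 did, against 10.4%.

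**Figure D5:**
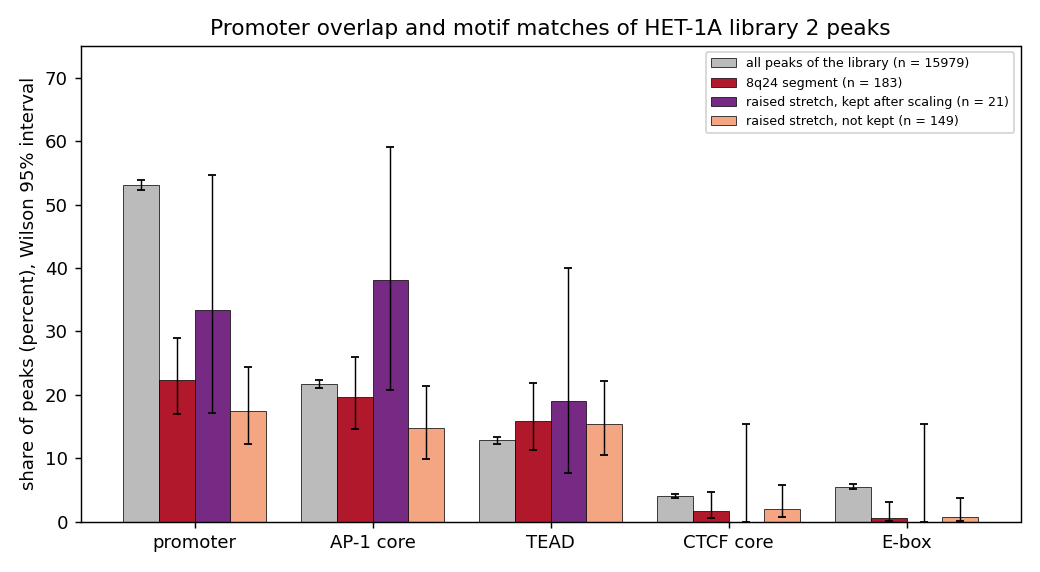
Share of HET-1A library 2 peaks in percent, with Wilson 95% intervals, that lie within 3 kb of a transcription start or hold each motif within 200 bp around the summit, for all 15979 peaks, the 183 of the segment, and the 21 and 149 peaks from the step on that did and did not pass after division by the relative background. Promoter overlap is lower in the segment than in the list, and the AP-1 share of 38.1% in the 21 peaks stands above 14.8% in the 149, with intervals that overlap slightly. The same split of the whole list is not shown.

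Beside other stretches of the genome, the segment of HET-1A library 2 was dense and high in background. Its 1-Mb windows, with 87 and 96 peaks, ranked 5 and 2 by number among 2093 windows with a peak, and 5 and 8 by median relative background among 1492 windows with at least 3 peaks. The 2 Mb before the segment held 59 peaks of that library with a median relative background of 2.34, and the 2 Mb after it held 4 with 1.07. KYSE-30 library 6 had 20 and 15 peaks in these flanks and 13 in the segment. Of the 4 other stretches compared, CCND1 to SHANK2 on chromosome 11 was closest to it in median relative background and fold enrichment. There HET-1A library 2 had 131 peaks, a median relative background of 18.5, a median fold enrichment of 1.85 and 6 peaks (4.58%) that passed after division by the relative background, and KYSE-30 libraries 4 and 6 also stood at 7.36 and 7.23. At the 5 windows around EGFR on chromosome 7 the lines were the other way round, with median relative backgrounds of 7.65 and 9.64 in KYSE-30 libraries 4 and 6 and 1.00 in HET-1A library 2.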

How the data were processed

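ATAC-seq was analysed in 3 cell lines with 2 libraries each. The authors trimmed reads, marked duplicates with picard (version 2.2.1), mapped to hg19 with bowtie2 (2.3.3.1), removed blacklisted regions, applied the Tn5 shift, kept fragments under 100 bp and called peaks per library with MACS2 (version 2.1.0.20160309, per the submitters' processing notes) at a q-value of 0.05, without a control. The deposited lists give for each peak a score, a fold enrichment (a ratio, with 1 added to tags and background) and −log10 of its p-value and q-value. Tags and local background were recovered from fold enrichment and Poisson p-value within 0.001 of −log10 p, for 99.6 to 100% of the peaks of a list, and the recovery was tested on simulated data. Each list lacks 159 to 199 peak numbers, and 0 of these fall between its peaks in the segment. Merged regions needed an overlap of 1 bp. Annotation was GENCODE 44 lifted to hg19, with promoters within 3 kb of a transcription start. Of 19 listed genes 13 were matched by name, and the other 6 were not analysed here. Named regions were those with a peak in at least 2 libraries and the 5 peaks of highest fold enrichment in each library. Further peaks were named for their position beside MYC, PVT1 or the step after their values were seen. The members and lists were chosen with earlier results of these data known. The relative background of at least 4 was also chosen so. Alternatives were stricter q-values, equal list lengths, MYC to PVT1 only, other overlaps, promoters and motif windows, the median as genome background, and libraries left out. Sequences are not printed. The software was Python 3.11.15, scipy 1.17.1, pandas 2.3.3, numpy 2.4.6 and matplotlib 3.10.9.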

Additional observations from a re-analysis of the deposited data

How the results depend on the processing

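Of 157 recomputed values, 122 stayed within the spread or count range set for them and 35 moved beyond it. A change of direction was not scored. Some of the 122 could not move, such as the 0 peaks of KYSE-150 library 8 under stricter q-values. From the start of MYC to the end of PVT1 the numbers of peaks were 0 (library 1) and 57 (library 2) for HET-1A, 3 (library 4) and 8 (library 6) for KYSE-30, and 0 for KYSE-150 library 7. As shares of the lists these were 0 in HET-1A library 1 and KYSE-150 library 7 and 0.357% in HET-1A library 2. The median relative background there was 1.65 and 1.85 in KYSE-30 libraries 4 and 6, and the median fold enrichment in library 6 was 5.16. With 168 peaks per list, those with the smallest p-values, HET-1A libraries 1 and 2 had 3 and 24 (14.3% in library 2). KYSE-30 library 4 had 1, KYSE-30 library 6 had 0 (0%) and KYSE-150 library 7 had 1. At equal fold enrichment the p-value is smaller on a higher background, so this ranking favours peaks on the background that chose the segment. After division by the relative background, an alternative added after the data were seen, HET-1A libraries 1 and 2 had 0 and 33 peaks, with shares of 0% and 0.246%. With the median local background as genome background, the median relative background was 9.20 in HET-1A library 2, 1.13 and 1.15 in KYSE-30 libraries 4 and 6 and 0.714 in KYSE-150 library 7, which puts KYSE-150 library 7 below 1.

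With 1 library of a line left out, the regions counted for it are those of the other library. They were 183 without HET-1A library 1 and 3 without library 2 (0 shared), 13 without KYSE-30 library 4 and 6 without library 6 (4 shared), and 0 or 1 without 1 of the KYSE-150 libraries. The promoter share of HET-1A library 2 was 13.7% within 1 kb and 2.73% for protein-coding genes alone, and the AP-1 share of whole peaks was 26.8%. No paired analysis was possible because the lines share no replicate numbers. Short lists limit what can be said of HET-1A library 1 and KYSE-150.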
